A study of Mus musculus with 55 samples.

Results

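Dentate granule cells are the principal neurons of the dentate gyrus, the entry station of the hippocampus, and they send mossy fibres to hilar mossy cells and to CA3 pyramidal cells. They are excitatory, fire sparsely, and keep being produced at a low rate in the adult mouse. Genes enriched in granule cells over the pyramidal cells of CA1 to CA3 are widely used to locate the dentate gyrus in hippocampal tissue. The 8 genes described here were chosen by name as such markers, with earlier results of these data known, although the rule itself uses no measured value. They are 8 of the 55487 Ensembl genes counted in the series, and all 8 were among the 16168 genes with enough reads to be tested. Prox1 and Glis3 encode transcription factors, the former required for granule cell identity. C1ql2 encodes a secreted C1q-like protein of mossy fibre synapses, and Stxbp6 encodes amisyn, which binds SNARE proteins of vesicle fusion. Dsp encodes desmoplakin, a desmosome protein, and Pdzd2 a protein with several PDZ domains. Tdo2 encodes a tryptophan dioxygenase, which opens the kynurenine route of tryptophan breakdown, and Calb1 encodes calbindin, a calcium buffer of mature granule cells and of many CA1 cells.

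RNA of the dorsal hippocampus was sequenced from 55 adult mice, with 1 library per mouse, to ask how sex, estrous stage and loss of Cnih3 alter expression. Cnih3 encodes an auxiliary protein of AMPA receptors, and the knock-out (KO) line, on a C57/BL6j background, lacks exon 4 of the gene. Females were staged by vaginal cytology. The wild-type (WT) groups held 4 metestrus, 6 diestrus, 5 proestrus and 7 estrus females and 5 males, and the KO groups held 5 metestrus, 6 diestrus, 4 proestrus and 6 estrus females and 7 males. The sources describe no treatment. Ages ran from 10.86 to 23.71 weeks, and 17 mice were under 14 weeks, of which 3 were among the 6 WT and 4 among the 6 KO diestrus mice. All 28 KO and 11 of the 27 WT mice came from matings with a Cnih3 parent, and the other 16 WT mice came from B6 pairs. RNA came from the supernatant of a detergent lysate, so levels are those of the soluble fraction of the tissue. Libraries held between 25881295 and 63547098 counted reads, with a median of 53384170. The library of WT proestrus mouse 5 had the lowest quality weight of the model (0.194) and lay outside the range of all other mice for 23.2% of genes, against a median of 2.35%, followed by KO estrus mouse 1 with 12.5%. Whole-gene counts of Cnih3 could not check the genotype labels, since they also cover the exons that remain. Its log2 CPM overlapped between WT (4.43 to 5.97) and KO mice (4.43 to 5.58). The paper examined reads over exon 4 in these animals and reports the loss of that exon in KO mice.

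All 8 genes were detected in every mouse. Detection goes with the tissue label but cannot set it apart from other brain regions, since listed genes of thalamus and neocortex were detected in every mouse too. Per kilobase of exon, mean log2 CPM (counts scaled to library size) ranked Calb1 (5.33) over Stxbp6 (4.50), Prox1 (3.50), C1ql2 (3.06), Tdo2 (2.26), Dsp (1.87), Pdzd2 (0.08) and Glis3 (-0.65). Read counts per mouse ran from 2168 to 20035 for Calb1 and from 134 to 543 for Glis3, the gene with the fewest reads at the median (274). The spread between mice of a group differed widely between the genes. Prox1 (SD 0.21 on the log2 scale) and Stxbp6 (0.22) were the steadiest, at percentiles 29.5 and 35.2 of all tested genes. Calb1 (0.60, percentile 92.6), Tdo2 (0.50, percentile 86.5) and C1ql2 (0.49, percentile 86.4) were the most variable. Dsp (0.29), Pdzd2 (0.28) and Glis3 (0.33) lay between. The gene models of Pdzd2, Stxbp6 and Glis3 overlap another gene, so that their counts are less certain. In bulk tissue a lower level of these genes can come from fewer granule cells or from less RNA per cell, and the 2 cannot be told apart.

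C1ql2 and Stxbp6 were called between all KO and all WT mice, although the Stxbp6 call was kept in only 5 of 11 alternatives. Prox1 and Glis3, the transcription factors, were called between estrus and other groups. Promoter sequences are shown for these genes. Each is the 250 bases upstream of a RefSeq start in GRCm38.p6, written 5′ to 3′ on the strand of the gene. Capitals mark matches, on either strand, to 5 short motifs. The GC box was searched as GGGCGG and the TATA box as TATAAA. The E-boxes searched were CAGATG, bound by neuronal factors of the NeuroD type, and the related CAGCTG. The core of the estrogen response element was searched as GGTCA, and it lies within the full element, which is that core, 3 free bases and the reverse complement of the core.
C1ql2, chr1:120340332-120340581, plus strand: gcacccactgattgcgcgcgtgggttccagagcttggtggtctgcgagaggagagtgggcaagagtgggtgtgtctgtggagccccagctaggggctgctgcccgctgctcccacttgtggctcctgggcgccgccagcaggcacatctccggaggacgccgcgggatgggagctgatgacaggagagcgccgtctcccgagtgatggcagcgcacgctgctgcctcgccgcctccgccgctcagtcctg
Stxbp6, chr12:45074484-45074733, minus strand: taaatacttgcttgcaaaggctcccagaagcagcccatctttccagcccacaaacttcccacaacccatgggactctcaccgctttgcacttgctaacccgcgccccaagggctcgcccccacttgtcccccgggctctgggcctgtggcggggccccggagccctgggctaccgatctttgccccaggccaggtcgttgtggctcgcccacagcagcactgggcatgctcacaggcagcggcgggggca
Prox1, chr1:190170828-190171077, minus strand, the upstream of 2 entries: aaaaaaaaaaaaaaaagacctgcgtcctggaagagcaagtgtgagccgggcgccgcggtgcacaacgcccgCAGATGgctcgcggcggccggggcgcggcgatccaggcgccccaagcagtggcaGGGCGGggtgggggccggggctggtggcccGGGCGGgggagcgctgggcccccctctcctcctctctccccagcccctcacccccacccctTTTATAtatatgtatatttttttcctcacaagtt
Glis3, chr19:28680078-28680327, minus strand: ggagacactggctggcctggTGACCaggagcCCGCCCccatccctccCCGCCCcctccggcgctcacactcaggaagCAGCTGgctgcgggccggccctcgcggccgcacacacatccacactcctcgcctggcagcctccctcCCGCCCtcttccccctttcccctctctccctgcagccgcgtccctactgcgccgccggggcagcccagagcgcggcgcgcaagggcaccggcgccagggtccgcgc
RefSeq entries were matched for 7 of the 8 members, and Calb1 is named only. For Prox1 the bases after either RefSeq start were not found in a GENCODE transcript of the gene, unlike for the other 6, so its window is less certain. The windows of C1ql2 and Stxbp6 held none of the letters searched. GGGCGG was found in Prox1, Dsp, Pdzd2 and Glis3 and in 32.7% of 32851 promoter windows. GGTCA was found in Tdo2 and Glis3 and in 35.2% of windows, while the full element (0.0639% of windows) and the cyclic AMP response element TGACGTCA (1.55%) were in 0 members. CAGCTG was in Glis3 (13% of windows), CAGATG in Prox1 (14.4%) and TATAAA in Prox1 and Tdo2 (12.4%). The share of G and C was 46.4% in the Tdo2 window and between 56% and 75.6% in those of the other 6 members, against a median of 52.4% over all windows. These matches describe the letters only.

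Among the 8 genes C1ql2 (chr1:120340582-120343174, plus strand) varied most between groups. Its log2 CPM in WT diestrus ran from 2.94 to 5.17 with a median of 3.83 (n = 6). In WT estrus it stayed between 4.44 and 4.77 with a median of 4.56 (n = 7). The WT estrus mice sat close together, and WT diestrus mice 3, 4 and 5 lay below every other WT mouse. In WT metestrus the 4 mice measured 4.50, 4.27, 4.09 and 4.63. In WT proestrus the 5 mice measured 4.01, 3.66, 4.66, 4.97 and 5.26. In WT males the 5 mice measured 4.12, 3.64, 4.64, 4.70 and 5.25. These 3 groups overlapped with each other and with the upper WT diestrus mice.

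In KO mice C1ql2 ran from 2.04 to 3.74 in diestrus with a median of 2.78 (n = 6), the lowest of all 10 groups. The KO metestrus mice measured 3.55, 3.39, 3.71, 4.30 and 3.78. The KO proestrus mice measured 3.92, 4.29, 4.67 and 4.82. All 4 KO proestrus mice were above all 6 KO diestrus mice, and 4 of the 6 diestrus mice were below every KO metestrus mouse. KO estrus mice ran from 3.57 to 4.54 with a median of 3.65 (n = 6), and KO males from 3.52 to 4.31 with a median of 4.10 (n = 7). Ordered by group mean, C1ql2 was ordered from WT estrus (4.60 ± 0.12 SD) through WT proestrus (4.51), WT males (4.47), KO proestrus (4.42), WT metestrus (4.37), KO males (4.03), WT diestrus (3.87 ± 0.79), KO estrus (3.87) and KO metestrus (3.75) to KO diestrus (2.91 ± 0.63). Of the 9 neighbouring pairs in this order, 2 differed by more than the larger SD of the pair, WT metestrus over KO males (0.34) and KO metestrus over KO diestrus (0.84). For the other 7 genes 0 of 9 neighbouring pairs did so.

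**Figure D1:**
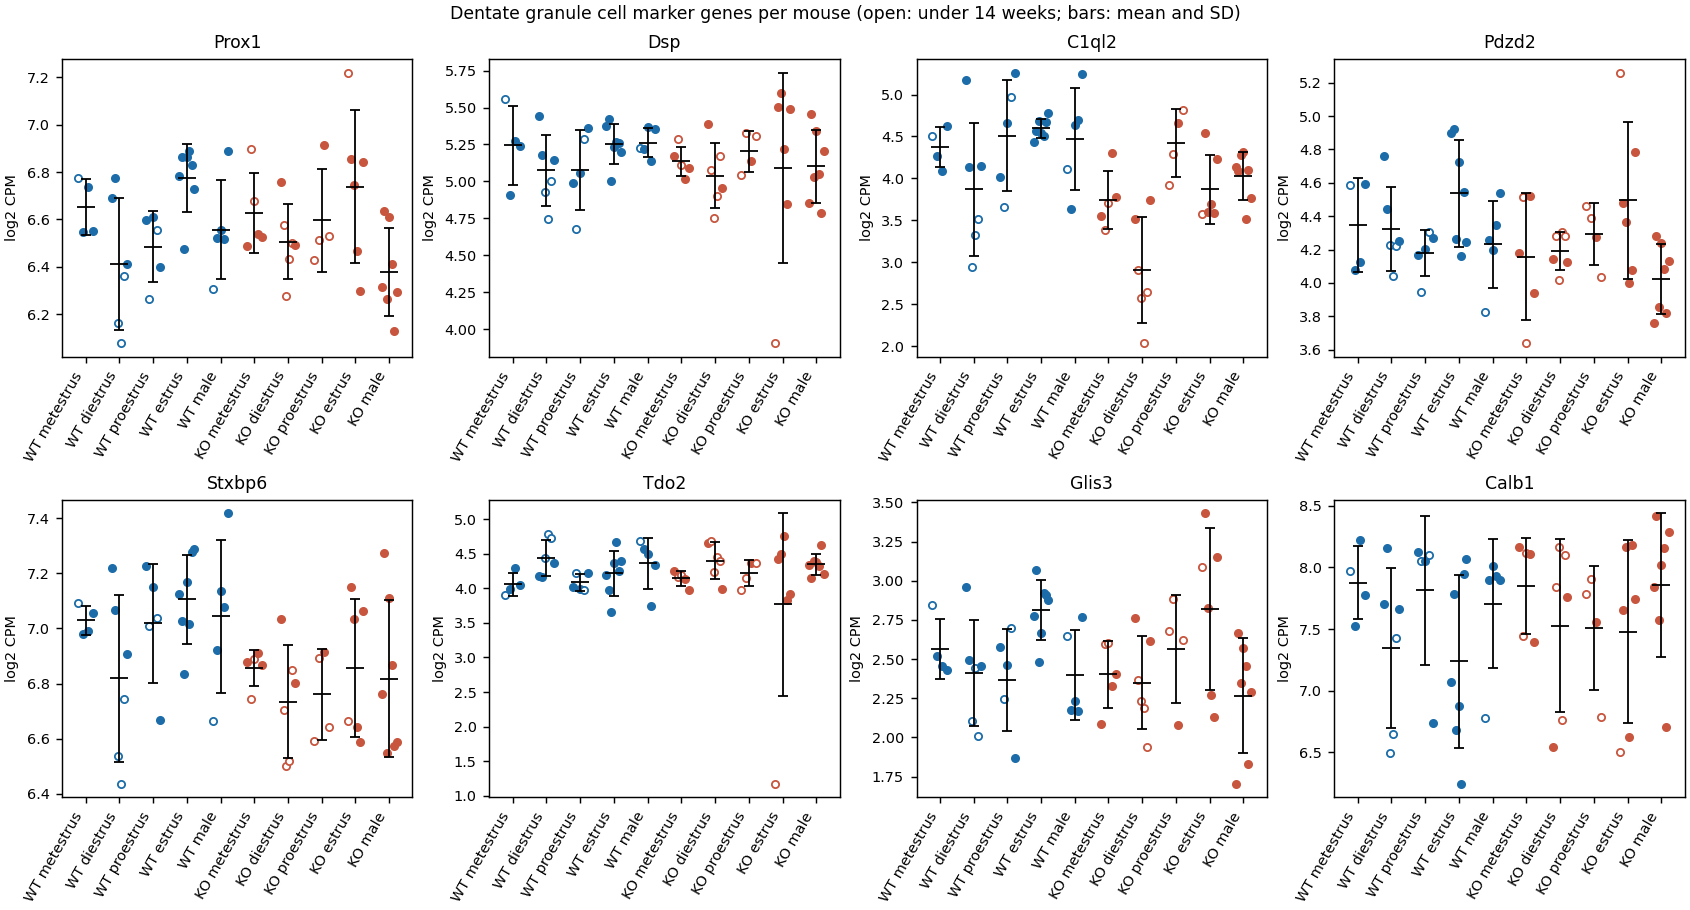
Log2 CPM of each of the 8 genes (y axes) in each mouse (points) of the 10 groups (x axis), with WT mice in blue, KO mice in red, open points for mice under 14 weeks, and bars for the mean and SD of a group. KO diestrus has the lowest group mean of C1ql2, with mice from 2.04 to 3.74, and KO estrus mouse 1 stands alone at a Tdo2 value of 1.17.

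Comparisons between stages were taken from a limma model of all 55 mice, in which libraries are weighted by quality, so a fitted fold change can differ from the difference of plain means. All contrasts with the same group share its mice. In WT mice, proestrus against diestrus gave 2 of the 8 genes at an FDR below 0.05, both higher in proestrus, where 9.66% of all genes were called. C1ql2 was higher by 0.78 ± 0.26 (SE) on the log2 scale (FDR = 0.0432), with overlapping groups. Stxbp6 (chr12:44852484-45074709, minus strand) measured 7.23, 7.01, 7.15, 7.04 and 6.67 in WT proestrus, and between 6.44 and 7.22 with a median of 6.83 in WT diestrus. It was higher by 0.39 ± 0.13 (FDR = 0.0395), and the groups overlapped across most of their range. Neither call was stable to leaving out 1 mouse. C1ql2 lost its call without WT diestrus mouse 3, 4 or 5 (0.29 to 0.34) or WT proestrus mouse 3, 4 or 5 (0.54 to 0.68). Stxbp6 lost it without WT diestrus mouse 3, 4 or 5 (0.17 to 0.20) or WT proestrus mouse 1 (0.36) or 3 (0.42).

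WT estrus against WT diestrus gave 4 of the 8 genes, all higher in estrus, where 22.1% of all genes were called. Prox1 (chr1:190118035-190170714, minus strand) ran from 6.47 to 6.89 in WT estrus with a median of 6.83, and from 6.08 to 6.77 in WT diestrus with a median of 6.39. Of the 7 estrus mice 5 were above every diestrus mouse, and Prox1 was higher by 0.44 ± 0.10 (FDR = 0.00253). C1ql2, with the values above, was higher by 0.95 ± 0.23 (FDR = 0.00303), although the highest WT diestrus mouse exceeded all estrus mice. Stxbp6 ran from 6.84 to 7.29 in WT estrus with a median of 7.12, and was higher by 0.39 ± 0.11 (FDR = 0.0108). Glis3 (chr19:28258851-28680077, minus strand) ran from 2.48 to 3.07 in WT estrus with a median of 2.88, and from 2.01 to 2.96 in WT diestrus with a median of 2.45. It was higher by 0.47 ± 0.18 (FDR = 0.0465), with 1 estrus mouse above every diestrus mouse. The calls of Prox1, C1ql2 and Stxbp6 were each lost without WT diestrus mouse 3, 4 or 5, which left 0.27 to 0.30 for Prox1, 0.47 to 0.52 for C1ql2 and 0.18 to 0.22 for Stxbp6. The call of Glis3 was lost in 11 of 55 such fits, namely without WT diestrus mouse 3, 4 or 5, WT estrus mouse 1, 2, 6 or 7, WT male 1, KO diestrus mouse 4 or KO male 6 or 7, with 0.32 to 0.47 left. With edgeR, DESeq2 or limma without library weights 0 of the 8 genes were called in any WT stage pair, where 5, 4 and 5 genes had an unadjusted p under 0.05 in some pair.

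Of 23 other genes enriched in granule cells, 3 were called in WT proestrus against diestrus and 13 in WT estrus against diestrus. All of those called were higher than in diestrus, and the medians of the 23 were 0.20 and 0.34. Of all genes 9.66% and 22.1% were called there. The medians of the 8 genes were 0.18 and 0.36, and those of all genes lay within 0.04 of 0. Plk5 (1.76 ± 0.33), Trpc6 (0.57 ± 0.18) and Tiam1 (0.42 ± 0.14) were called in the former comparison. Sema5a (0.87 ± 0.16), Tiam1 (0.64 ± 0.12) and Lrrtm4 (0.66 ± 0.14) had the smallest FDR in the latter. Genes of other cells moved in the same comparisons. Of 12 mature oligodendrocyte genes, 9 were called higher in proestrus (median 0.77) and 6 in estrus (0.41), and their summed level ran from 3034 to 5362 CPM in WT diestrus, 3746 to 6959 in proestrus and 3937 to 5587 in estrus, with no gene at 0 in any mouse. Of 8 CA1 genes 4 were higher in estrus (summed level 423 to 491 CPM, against 321 to 452 in diestrus), as were 4 of 6 oligodendrocyte precursor genes (39.3 to 49.7 against 24.1 to 45.6 CPM), 4 of 4 blood genes (225 to 1160 against 140 to 360.0 CPM) and 4 of 5 late activity genes (210.5 to 245 against 109 to 206 CPM). Of 6 mossy cell genes tested, 1 was called lower in each comparison, as were 2 of 7 astrocyte genes. Of 8 CA3 genes, 1 was lower in proestrus, while 1 was higher and 1 lower in estrus. Of 9 interneuron genes 2 were higher in estrus, with a median of -0.07 over the 9. The part of other cell types in the results on the 8 genes was not tested.

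**Figure D2:**
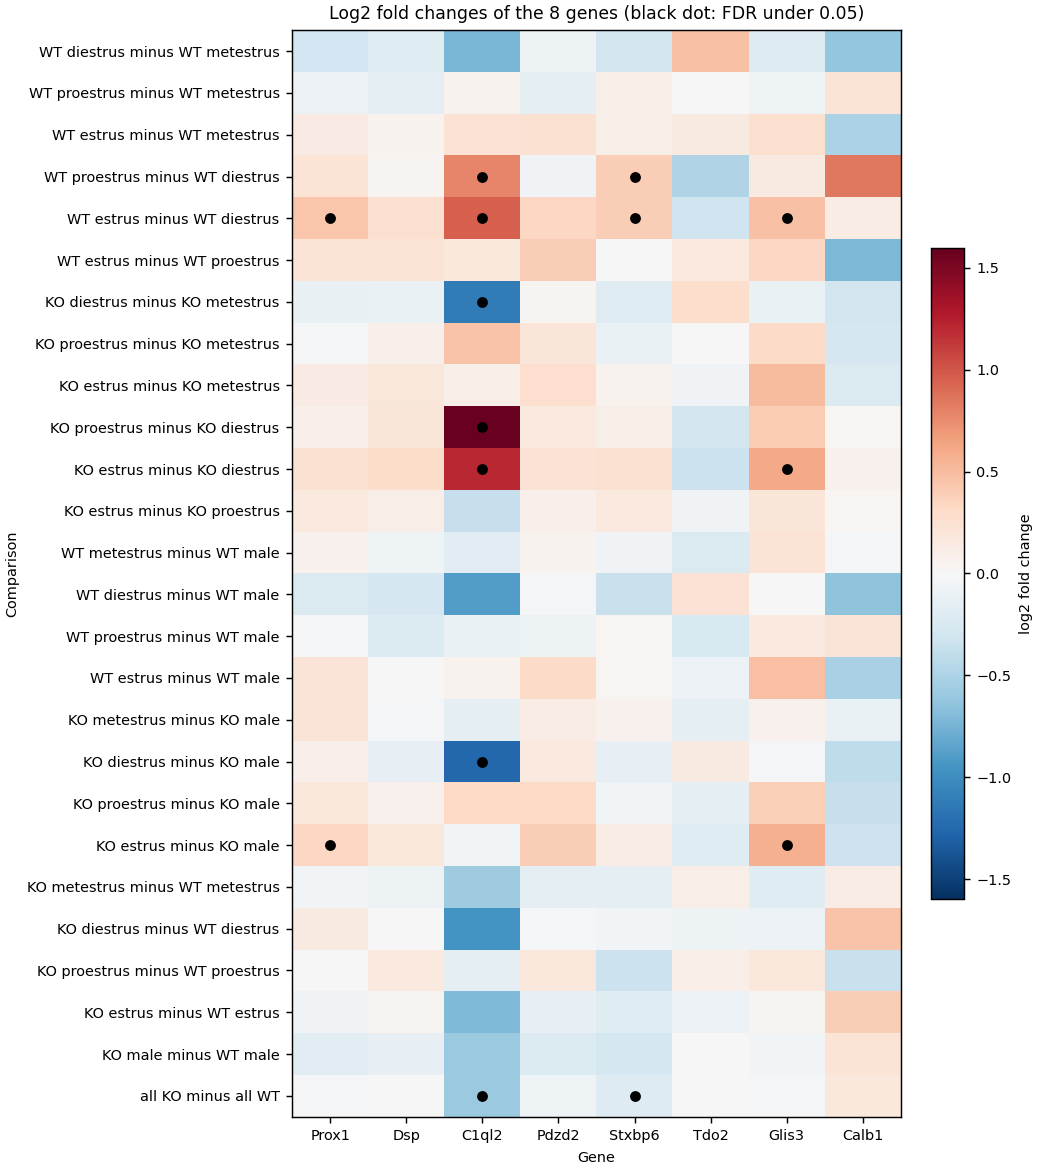
Fitted log2 fold changes (colour scale, red higher and blue lower in the group named first) of the 8 genes (x axis) in 26 comparisons (y axis), with a black dot at an FDR below 0.05. C1ql2 has the most dots, 7, and reaches 1.58 between KO proestrus and KO diestrus.

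In the other 4 WT stage pairs limma called 0 of the 8 genes, as did edgeR and DESeq2. The background was 7.24% in diestrus against metestrus, 0.767% in proestrus against metestrus, 0% in estrus against metestrus and 6.82% in estrus against proestrus. Among these 32 values 7 had an unadjusted p under 0.05. They included C1ql2 in diestrus against metestrus (-0.73 ± 0.25, FDR = 0.0591) and Calb1 in estrus against proestrus (-0.72 ± 0.27, FDR = 0.0923). In the same WT diestrus against metestrus comparison 7 of the 23 other granule cell genes and 5 of the 12 oligodendrocyte genes were called, all lower in diestrus. Against WT males limma called 0 of the 8 genes in each of the 4 stages, and so did edgeR and DESeq2. There the background was 0.0680% in diestrus, 0.0495% in estrus, and 0.0309% in both metestrus and proestrus. Of these 32 values 3 had an unadjusted p under 0.05, with C1ql2 in diestrus at -0.89 ± 0.27 (FDR = 0.108) the smallest.

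In KO mice C1ql2 was called in every stage pair that included diestrus. It was lower in diestrus than in metestrus by -1.12 ± 0.25 (FDR = 0.00258), the 1 call among the 8 genes where 10.4% of all genes were called. KO proestrus was higher than KO diestrus by 1.58 ± 0.25 (95% confidence interval 1.10 to 2.06, FDR = 5.62e-06), a fold of 2.99, and no mice of these groups overlapped. Again C1ql2 was the 1 call among the 8 genes, where 34.3% of genes were called. KO estrus against KO diestrus gave 2 of the 8 genes, where 30.7% of genes were called. C1ql2 was higher in estrus by 1.21 ± 0.24 (FDR = 0.000263), with 2 of 6 estrus mice above every diestrus mouse. Glis3 ran from 2.13 to 3.43 in KO estrus with a median of 2.96, and from 1.94 to 2.76 in KO diestrus with a median of 2.30. It was higher by 0.60 ± 0.16 (FDR = 0.00464), with 4 of 6 estrus mice above every diestrus mouse. No single mouse left out removed a C1ql2 call here, while the Glis3 call was lost without KO estrus mouse 2 (0.42, FDR = 0.0721). The C1ql2 call against metestrus was lost with edgeR (-0.76, FDR = 0.582), with DESeq2 (-0.75, FDR = 0.509) and in limma without library weights (-0.83, FDR = 0.454). In estrus over diestrus the same 3 fits lost the call of C1ql2, at 0.90, 0.89 and 0.96 (FDR = 0.103, 0.0747 and 0.0678), and that of Glis3, at 0.51, 0.50 and 0.46 (FDR = 0.133, 0.115 and 0.146). In proestrus over diestrus all 3 kept the C1ql2 call, at 1.44, 1.44 and 1.47. Prox1 measured 0.24 ± 0.10 in KO estrus over diestrus (FDR = 0.0504).

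Of the 23 other granule cell genes, 1 was lower in KO diestrus than in metestrus (Plk5, -0.94 ± 0.28). In proestrus 4 were higher and 2 lower than in diestrus, and in estrus 9 were higher than in diestrus. Of all genes 10.4%, 34.3% and 30.7% were called in these comparisons. Gabrd (0.43 ± 0.12), Sema5a (0.55 ± 0.16) and Pkp2 (0.42 ± 0.12) were higher in KO proestrus, while Ablim3 (-0.36 ± 0.09) and Il16 (-0.37 ± 0.12) were lower. Sema5a (0.65 ± 0.15), Dock10 (0.39 ± 0.10) and Tiam1 (0.43 ± 0.12) had the smallest FDR in KO estrus over diestrus. The medians of the 8 genes in these 3 comparisons were -0.11, 0.12 and 0.24, beside -0.11, 0.15 and 0.25 for the 23. C1ql2 had the difference farthest from 0 of the 8 genes in each of the 3. Mature oligodendrocyte genes moved too, with 10 of 12 lower in KO diestrus than in metestrus, 9 higher in proestrus and 8 higher in estrus. Their summed level was 2937 to 4816 CPM in KO diestrus, 4563 to 6103 in metestrus, 4036 to 6454 in proestrus and 3619 to 5965 in estrus. All 7 early activity genes were higher in KO estrus than in diestrus (summed level 384 to 731 against 307 to 561 CPM). Of 7 astrocyte genes 3 were higher in KO diestrus than in metestrus. In both proestrus and estrus 1 of these was higher and 2 were lower than in diestrus. Of 7 microglia genes 4 were lower and 1 higher in KO diestrus than in metestrus. The part of genes of other cells in the results was not tested.

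The other 3 KO stage pairs gave 0 of the 8 genes by limma, edgeR or DESeq2, where 4.37% of genes were called in proestrus against metestrus, 0% in estrus against metestrus and 0.507% in estrus against proestrus. Of these 24 values 1 had an unadjusted p under 0.05, Glis3 in estrus against metestrus (0.50 ± 0.17, FDR = 0.586). Against KO males 3 of the 8 genes were called in some stage. C1ql2 was lower in KO diestrus than in KO males by -1.26 ± 0.23 (FDR = 4.13e-05), the 1 call there with 28.7% of genes called, and 4 of 6 diestrus mice were below every male. Prox1 ran from 6.30 to 7.22 in KO estrus with a median of 6.79, and from 6.13 to 6.64 in KO males with a median of 6.31. It was higher in estrus by 0.33 ± 0.09 (FDR = 0.026), with 4 of 6 estrus mice above every male, but the call was lost in 23 of 55 fits that left out a mouse. Those included 6 of the 13 fits without a mouse of these groups, namely KO estrus mouse 2, 3 or 6 and KO male 1, 5 or 7, with 0.28 to 0.31 left, and FDR was at most 0.127. The remaining 17 of the 23 left out a mouse of another group and gave 0.28 to 0.29 (FDR of 0.0503 to 0.0633). In all 17 the TMM scaling took KO diestrus mouse 1 as its reference library, in place of KO metestrus mouse 4. With that reference and all mice, an alternative chosen after seeing the data, Prox1 measured 0.28 ± 0.10 (FDR = 0.0581). The 25 fits without a mouse of another group that kept the call used another reference and gave 0.33 to 0.34. The call was also lost with edgeR (0.38, FDR = 0.0713), without library weights (0.36, FDR = 0.0942) and without a filter on low counts (0.30, FDR = 0.156). Glis3 in KO males ran from 1.71 to 2.67 with a median of 2.35, and was higher in KO estrus by 0.57 ± 0.16 (FDR = 0.0189). It lost its call without KO estrus mouse 2 (0.41) or 6 (0.46) or KO male 1 (0.43), and also with edgeR (FDR = 0.074), without weights (0.101), without a filter (0.121), with age as a covariate (0.0588) and with Salmon counts (0.0787). In KO estrus against males 7.66% of all genes were called.

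In KO metestrus and proestrus against KO males limma, edgeR and DESeq2 called 0 of the 8 genes, with 0.359% and 0.315% of all genes called by limma. Of these 16 values 3 had an unadjusted p under 0.05, with FDR from 0.222. Of the 23 other granule cell genes 2 were higher and 4 lower in KO diestrus than in males, among them Plk5 (-1.26 ± 0.26), Gabrd (-0.46 ± 0.11), Pkp2 (-0.34 ± 0.11), Lct (0.25 ± 0.08) and Neurod1 (0.21 ± 0.08). In KO estrus 2 were higher than in males, Rfx3 (0.53 ± 0.11) and Dock10 (0.30 ± 0.10). Of all genes 28.7% were called in KO diestrus and 7.66% in KO estrus against males. The medians of the 8 genes were -0.08 in KO diestrus and 0.14 in KO estrus against males, beside -0.07 and 0.18 for the 23. Of the 12 oligodendrocyte genes 10 were lower in KO diestrus than in KO males (summed level 4435 to 5719 CPM in males). Of 7 microglia genes 6 were lower and 1 higher there, and of 7 astrocyte genes 3 were higher. The part of these genes was not tested.

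Of the 12 diestrus mice 7 were under 14 weeks, against 10 mice in all other groups together, and age moved with the C1ql2 values. WT diestrus mice under 14 weeks (11.71 to 12.29 weeks) ran from 2.94 to 3.51 with a median of 3.32 (n = 3), and those of 14 weeks or more from 4.14 to 5.17 with a median of 4.15 (n = 3). KO diestrus mice under 14 weeks (10.86 to 13.86 weeks) ran from 2.04 to 2.90 with a median of 2.62 (n = 4), and the older pair measured 3.52 and 3.74. The younger and older diestrus mice did not overlap in either genotype. WT diestrus mice 3, 4 and 5, the younger ones, came from Cnih3 matings, as did older mouse 6, while older mice 1 and 2 came from B6 pairs. The younger diestrus mice of both genotypes also carry a form of mouse number that no other mouse has, and its meaning is not given. Age cannot be told apart from this numbering, and in WT only in part from mating. WT mice under 14 weeks outside diestrus (12 to 13.57 weeks) ran from 3.66 to 4.97 (n = 4), and KO mice under 14 weeks outside diestrus (13 to 13.57 weeks) from 3.39 to 4.82 (n = 6). All of them were above the diestrus mice under 14 weeks of their genotype. From 14 weeks on, mice outside diestrus ran from 3.64 to 5.26 in WT (n = 17) and from 3.52 to 4.67 in KO (n = 16), and the diestrus mice of that age lay within these ranges.

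**Figure D3:**
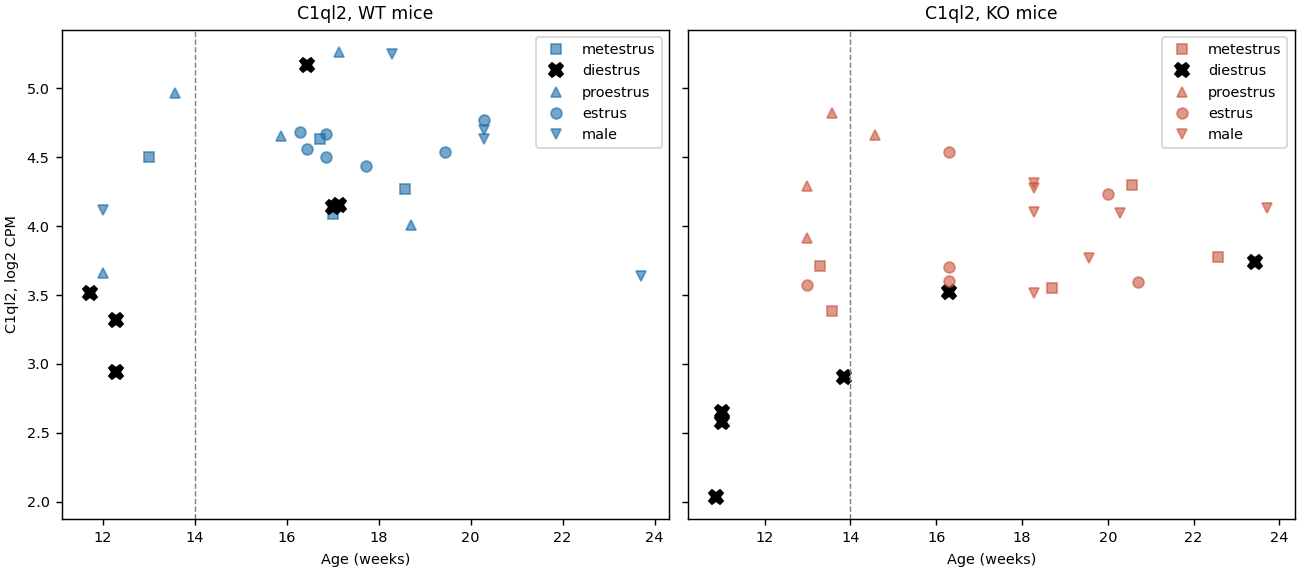
Log2 CPM of C1ql2 (y axis) against age in weeks (x axis) in WT mice (left) and KO mice (right), with each point a mouse, marker shapes for stage or sex, diestrus in black, and a dashed line at 14 weeks. Diestrus mice left of the line run from 2.94 to 3.51 in WT and from 2.04 to 2.90 in KO, below all other mice of their genotype.

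A further fit kept only the diestrus mice under 14 weeks, with all mice of the other groups. WT estrus and KO males held 0 mice under 14 weeks, and WT metestrus, WT males and KO estrus 1 each. KO proestrus (13 to 14.57 weeks) held 3 of 4 such mice, and KO metestrus and WT proestrus 2 of 5 each. Age differed along with stage or sex here, less so by this count for these groups, and age cannot be told apart from stage or sex. In that fit more of the 8 genes were called, and so were more genes in all. In WT diestrus against metestrus 5 were called, C1ql2 (-1.09 ± 0.24), Calb1 (-0.98 ± 0.31), Stxbp6 (-0.45 ± 0.12) and Prox1 (-0.43 ± 0.11) lower and Tdo2 (0.64 ± 0.22) higher in diestrus, beside 38.6% of genes. In WT proestrus against diestrus the same 5 were called, with C1ql2 at 1.16 ± 0.24, Calb1 at 1.21 ± 0.31 and Tdo2 at -0.64 ± 0.23, beside 39.3%. In WT estrus against diestrus 7 were called, all but Calb1, beside 46.9% of genes. C1ql2 (1.32 ± 0.22), Prox1 (0.56 ± 0.10) and Stxbp6 (0.55 ± 0.11) led there. In WT diestrus against males 4 were called, beside 26.2% of genes, with C1ql2 at -1.25 ± 0.26. In KO mice the calls were C1ql2 in diestrus against metestrus (-1.19 ± 0.23, beside 18.2% of genes) and against males (-1.32 ± 0.21, beside 35.3%), and C1ql2 and Glis3 in proestrus (1.63 ± 0.23 and 0.44 ± 0.18, beside 39.2%) and in estrus (1.26 ± 0.23 and 0.64 ± 0.17, beside 39.5%) against diestrus.

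With only the diestrus mice of 14 weeks or more, limma called 0 of the 8 genes in every contrast of diestrus with another stage or with males. Few genes of any kind were called there, 0.0371% in WT diestrus against males, 0.0433% in KO diestrus against males and 0% in the other 6. These fits rested on 3 WT and 2 KO diestrus mice. C1ql2 measured 0.08 ± 0.25 in WT proestrus, 0.26 ± 0.22 in WT estrus, 0.66 ± 0.34 in KO proestrus and 0.27 ± 0.34 in KO estrus over these diestrus mice. With age in weeks as a covariate in the model of all mice, C1ql2 still passed in KO proestrus (1.55 ± 0.25) and KO estrus (0.96 ± 0.25) over diestrus, in KO diestrus against males (-0.89 ± 0.26, FDR = 0.0277) and in WT estrus over diestrus (0.71 ± 0.23, FDR = 0.0348). It no longer passed in WT proestrus over diestrus (0.65 ± 0.25, FDR = 0.099) or KO diestrus against metestrus (-0.86 ± 0.26, FDR = 0.0869). The slope of C1ql2 on age within groups was 0.049 ± 0.021 per week (limma FDR = 0.54), and 0 of the 8 genes had a called slope.

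KO mice were compared with WT mice within each stage and in males to ask whether loss of Cnih3 altered the markers. In each of these 5 comparisons limma, edgeR and DESeq2 called 0 of the 8 genes, where limma called 0% of all genes in diestrus, 0.0247% in metestrus, 0.179% in estrus, 0.315% in proestrus and 0.00619% in males. Of the 40 values 6 had an unadjusted p under 0.05, all below 0 and all of C1ql2 or Stxbp6. C1ql2 measured -0.96 ± 0.27 in diestrus, -0.70 ± 0.20 in estrus, -0.59 ± 0.23 in males, -0.57 ± 0.22 in metestrus and -0.16 ± 0.23 in proestrus, with the smallest FDR in estrus (0.135). In estrus 5 of 6 KO mice were below every WT mouse. Stxbp6 measured -0.35 ± 0.12 in proestrus and -0.28 ± 0.12 in males. In metestrus its KO values (6.74 to 6.91, n = 5) all lay below its WT values (6.98 to 7.09, n = 4), without a call.

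Over all 5 pairs together, KO against WT gave 2 of the 8 genes, both lower in KO mice, where 3.40% of all genes were called. C1ql2 ran from 2.04 to 4.82 in 28 KO mice with a median of 3.76, and from 2.94 to 5.26 in 27 WT mice with a median of 4.50. The genotypes overlapped, with 4 KO mice below every WT mouse, and the fitted difference was -0.59 ± 0.10 (FDR = 0.000151), a fold of 0.662. It stayed called in all 55 fits that left out a mouse and with any other processing tried. Among mice from Cnih3 matings alone the difference was -0.80 ± 0.14, but there WT metestrus, proestrus and estrus held 1 mouse each. The WT proestrus mouse was mouse 5, the library with the lowest quality weight, at a C1ql2 value of 5.26. C1ql2 lies 61.0 Mb from Cnih3 on chromosome 1, and Prox1, which measured no called difference, lies 8.66 Mb from it. Stxbp6 ran from 6.50 to 7.27 in KO mice with a median of 6.83, and from 6.44 to 7.42 in WT mice with a median of 7.04. Its difference was -0.20 ± 0.05 (FDR = 0.0155), over nearly coinciding ranges, and the call was lost without KO proestrus mouse 1 (-0.18, FDR = 0.0571). It was also lost among mice from Cnih3 matings (-0.14 ± 0.08, FDR = 0.251), with edgeR (FDR = 0.109), DESeq2 (0.0672), no library weights (0.11), no filter on low counts (0.0889) and Salmon counts (0.973), and was kept in 5 of 11 alternatives that left out no single mouse. Of the 23 other granule cell genes 1 was called, Trpc6 (-0.31 ± 0.07), and the median was -0.07 beside -0.02 for the 8 genes. Among genes of other cells 1 of 8 CA3 genes (-0.38) and 1 of 9 interneuron genes (-0.33) were called, both lower in KO mice, and 0 of 12 oligodendrocyte genes. Their part was not tested.

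Whether the genotypes differed in how a gene changed between stages was tested by 10 interactions. All 10 called 0 of the 8 genes by limma, edgeR or DESeq2, and 0% of all genes by limma. Of the 80 values 2 had an unadjusted p under 0.05. The KO minus WT difference of the C1ql2 change from diestrus to proestrus was 0.80 ± 0.36 (FDR = 0.352), and Prox1 measured 0.32 ± 0.15 in diestrus against males (FDR = 1). The larger C1ql2 contrasts of KO mice are therefore not shown to differ from those of WT mice.

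Dsp, Pdzd2, Tdo2 and Calb1 passed no test in the model of all mice. Group means of Dsp (chr13:38151294-38198577, plus strand) ran from 5.04 in KO diestrus to 5.26 in WT males, with SDs of 0.10 to 0.64. Those of Pdzd2 (chr15:12359711-12739924, minus strand) ran from 4.02 in KO males to 4.54 in WT estrus, with SDs of 0.12 to 0.47. Those of Tdo2 (chr3:81957090-81976202, minus strand) ran from 3.77 in KO estrus to 4.44 in WT diestrus, with SDs of 0.11 to 1.32. Neighbouring groups in the order of each of these genes differed by less than the larger SD of the pair. For Pdzd2 the highest and lowest means were 0.51 apart, more than its largest SD. Calb1 (chr4:15881264-15908064, plus strand) had means from 7.24 in WT estrus to 7.87 in WT metestrus and the widest spread, with SDs of 0.30 to 0.74. Its 55 values left a gap of 0.32 with 14 mice at or below 7.07 and 41 at or above 7.40. The low mice were 4 of 7 in WT estrus, 2 of 6 in WT diestrus, KO diestrus and KO estrus, 1 of 5 in WT proestrus and WT males, 1 of 4 in KO proestrus, 1 of 7 in KO males, and 0 in both metestrus groups. Low Calb1 was thus spread over 8 of the 10 groups.

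KO estrus mouse 1, aged 13 weeks, set the extremes of 4 of the 8 genes. Its Tdo2 was 1.17, against 3.66 to 4.79 in the other 54 mice, and its Dsp was 3.91, against 4.68 to 5.60. Its Prox1 was 7.22, against 6.08 to 6.91, and its Pdzd2 was 5.26, against 3.64 to 4.92. The same library thus held the lowest Tdo2 and Dsp and the highest Prox1 and Pdzd2, while C1ql2, Stxbp6, Glis3 and Calb1 were within the range of other mice. Of the 23 other granule cell genes it was above all other mice for 2 and below for 6, while 12.5% of all genes lay outside the range. Several activity genes, which neurons switch on after firing, also lay outside the range of the other mice. Of 5 late activity genes 4 were above all other mice, namely Bdnf (8.48, against 6.29 to 7.25), Penk (7.99), Inhba (6.35) and Nptx2 (5.03). Of 7 early activity genes Fos (6.34) and Fosb (6.26) were above and Npas4 (0.47) below all other mice. Without this mouse the KO estrus calls of Prox1 and Glis3 were kept.

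**Figure D4:**
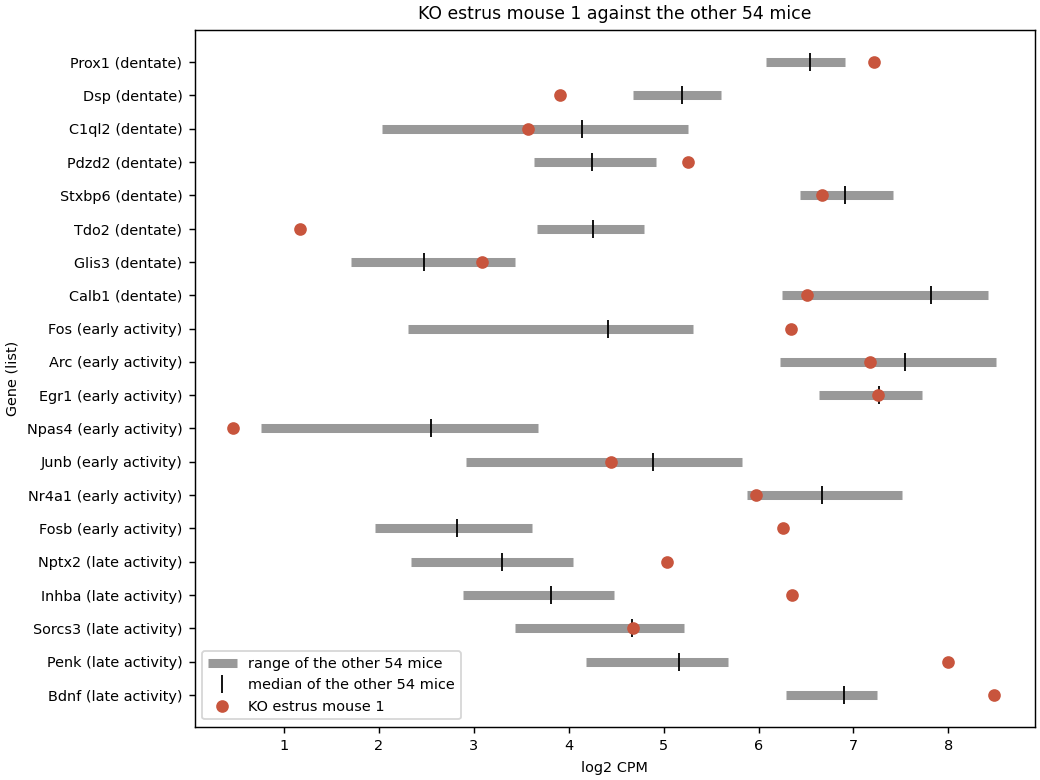
Log2 CPM (x axis) of the 8 genes and of early and late activity genes (y axis) in KO estrus mouse 1 (points), over the range (grey bars) and median (ticks) of the other 54 mice. The mouse lies below the range for Tdo2 (1.17) and Dsp (3.91) and above it for Prox1 (7.22) and Pdzd2 (5.26).

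Genes marking the same cells could vary together from mouse to mouse, and this was tested over the 55 mice after removing group means, with permutations of mice within groups and adjustment over the 28 pairs. Of the 28 pairs 12 had an adjusted p under 0.05, 11 of them positive. Pairs of other genes were not tested, so this count cannot be called particular to the markers. Prox1 and Stxbp6 were closest (Pearson's r = 0.674, permutation p = 2e-05, adjusted p = 0.00028, Spearman's rho = 0.688, permutation p = 1e-05). Leaving out the 2 mice farthest from the median of Prox1, KO estrus mice 1 and 5, gave r = 0.769. Prox1 with Pdzd2 (r = 0.615, rho = 0.539) and with Glis3 (r = 0.559, rho = 0.59), and Stxbp6 with Calb1 (r = 0.527, rho = 0.467), with Glis3 (r = 0.52, rho = 0.498), with Dsp (r = 0.508, rho = 0.522) and with C1ql2 (r = 0.492, rho = 0.499) followed. Tdo2 was the exception, negatively related to Pdzd2 (r = -0.541, rho = -0.467, adjusted permutation p = 0.00635, r = -0.41 without the 2 farthest mice) and to no other gene by an adjusted p under 0.05.

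Several of these values rested on KO estrus mouse 1. Without it 19 pairs had an adjusted permutation p under 0.05, 17 of them positive. The negative ones were Tdo2 with Calb1 (r = -0.418, adjusted permutation p = 0.0128) and with Pdzd2 (r = -0.353, adjusted permutation p = 0.0367). Prox1 with Dsp went from r = 0.23 to 0.711. Dsp with Tdo2 went from r = 0.591 to 0.0349. Prox1 with Stxbp6 was 0.794 without it. The 55 mice share a library protocol and a scaling, and the correlations are of relative levels. The genes most like each member over the 55 mice, by Pearson's r after removing group means, were Acvr1c (0.761), Tanc1 (0.759) and Phtf2 (0.751) for Prox1, Dgkh (0.835), Rasgrf2 (0.828) and Tspan18 (0.770) for Dsp, and Aplp1 (0.811), Slc8a2 (0.810) and Zdhhc18 (0.801) for C1ql2. They were Syne1 (0.679), Sv2c (0.669) and Tmtc1 (0.667) for Pdzd2, Rfx3 (0.785), Tiam1 (0.773) and Lingo2 (0.738) for Stxbp6, and Rragd (0.692), Lyst (0.685) and Hook3 (0.685) for Glis3. Calb1 had the closest ones, Stambpl1 (0.911), Rgcc (0.909) and Cbr3 (0.908). For Tdo2 they were Ntf3 (0.793), Otof (0.791) and Mapk3 (0.765), which were 0.586, 0.242 and 0.436 without KO estrus mouse 1. Of these 24 genes, Rfx3 and Tiam1 are in the list of 23 other granule cell genes.

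**Figure D5:**
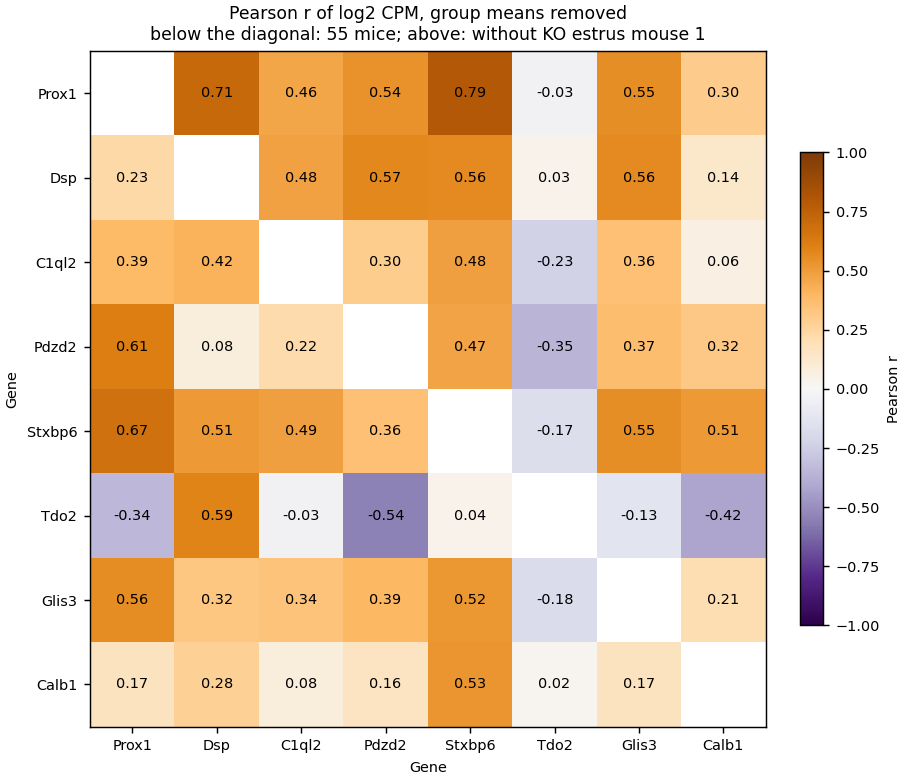
Pearson's r between the 8 genes (both axes) over mice after removing group means, below the diagonal with all 55 mice and above it without KO estrus mouse 1. Prox1 and Stxbp6 have the highest value below the diagonal (0.67), and Prox1 with Dsp goes from 0.23 to 0.71.

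Transcript estimates from Salmon gave a separate reading of the same libraries. Their totals were a median of 43.6% of the gene counts for Prox1, 43.1% for Dsp, 42.5% for Calb1, 40.6% for Glis3 and 36.5% for C1ql2. They were 10.1% for Tdo2, 4.46% for Stxbp6 and 0.996% for Pdzd2. Transcripts Prox1-201, Pdzd2-201, Stxbp6-201, Tdo2-201 and Glis3-201 of the annotation were not among those used here. With these totals in place of gene counts, C1ql2 kept its call in KO against WT (-0.62 ± 0.11), in KO proestrus over diestrus (1.57 ± 0.28) and in KO diestrus against males (-1.20 ± 0.27). The 3 Stxbp6 differences had the opposite sign, none of them called, at -1.75 in WT proestrus and -1.22 in WT estrus over diestrus and 0.08 in KO against WT. Pdzd2 rested on 0 to 33.1 estimated reads per mouse there, and measured -0.13 ± 0.55 in WT estrus over diestrus (limma FDR = 0.898). Tdo2, at a median of 93.0 estimated reads, was called lower in WT estrus than in diestrus with these totals (-0.83 ± 0.24, FDR = 0.025), and was called in KO stage pairs too.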

How the data were processed

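The authors sequenced 1 library from the dorsal hippocampus of each of 55 mice. The submitters' processing notes name STAR 2.7.9a, featureCounts 2.0.3, Salmon 1.5.2 and the GRCm38 build. The authors deposited raw gene counts, estimated counts per transcript, CPM tables and log2 CPM of the genes they tested. The gene counts are the source of all values except an alternative that used the deposited estimated counts, summed per gene and rounded. The CPM tables were not used here, and the deposited log2 CPM served to check the scaling, which was equal within 1e-13 for 16164 genes. Of the count columns 1 belongs to no listed mouse and was not used, and 287 of 55774 lines repeat a gene. No pair of libraries correlated above 0.991. Groups and ages come from the labels and matings from the study's sample sheet. Replicate numbers follow accession order and only name mice.

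The filter required more than 1 CPM in 10 or more libraries and removed 5 ribosomal genes, leaving 16168 genes. Counts were scaled by TMM (edgeR 4.0.16) and fitted by voomWithQualityWeights and empirical Bayes (limma 3.58.1, R 4.3.3) with 10 group means, and comparisons are contrasts of these means. FDR follows Benjamini and Hochberg over all genes of a contrast, with a threshold of 0.05. Per-mouse values are TMM-scaled log2 CPM. Correlations used 100000 two-sided permutations in Python 3.11.15. Alternatives were edgeR's quasi-likelihood test, DESeq2 1.42.0, no library weights, RLE size factors, no filter on low counts, age as a covariate, diestrus mice on either side of 14 weeks, mice from Cnih3 matings, Salmon counts, each mouse left out and, added after seeing the data, another TMM reference library. In the fit of mice from Cnih3 matings 3 WT groups hold 1 mouse, which is assumed to vary like the others. The steps were tested on simulated data. Genes named in the text are the 8 markers, Cnih3, up to 3 called genes per direction of the 23 other granule cell genes, and the 3 genes most like each marker. The markers and lists were chosen with earlier results of these data known. Activity genes of KO estrus mouse 1, and the unadjusted values named where no gene was called, were chosen after their values were seen. Positions are from GENCODE vM21 and promoters from RefSeq.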

Additional observations from a re-analysis of the deposited data

Results flagged for a closer look

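In 5 of the 80 combinations of a gene and a group, the highest or lowest mouse stood apart from the others by Dixon's criterion, against about 1 in 20 from chance alone. Prox1 in WT estrus mouse 3 was 6.47, the lowest of its group, with the nearest mouse at 6.73. Stxbp6 in KO metestrus mouse 2 was 6.74, with the nearest at 6.87. Tdo2 in KO estrus mouse 1 was 1.17, with the nearest at 3.84, and this is the library that lay outside the range of all other mice for Dsp, Prox1 and Pdzd2 too. Calb1 in WT proestrus mouse 5, the library with the lowest quality weight, was 6.74, with the nearest at 8.05. Calb1 in WT male 1 was 6.77, with the nearest at 7.90.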

How the results depend on the processing

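The count of the 8 genes called in WT stage pairs (4) was 0 with edgeR, DESeq2, no library weights or only diestrus mice of 14 weeks or more, 1 with mice from Cnih3 matings and 8 with only diestrus mice under 14 weeks. In the WT pairs with diestrus, 38.6% to 46.9% of all genes were called with the younger diestrus mice and 0% with the older ones. In KO stage pairs (2) the count was 1 with edgeR, DESeq2 or no weights and 0 with the older diestrus mice. In WT stages against males (0) it was 4 with the younger diestrus mice, where 26.2% of all genes were called in diestrus against males. With mice from Cnih3 matings, where WT metestrus, proestrus and estrus hold 1 mouse each, C1ql2 measured -1.35 in WT diestrus against males. In KO stages against males (3) the count was 1 with edgeR, no weights or no filter. In all KO against all WT (2) it was 1 with edgeR, DESeq2, no weights, no filter, Cnih3 matings or Salmon counts. Stxbp6 reversed with Salmon counts in WT proestrus over diestrus (-1.75), WT estrus over diestrus (-1.22) and KO against WT (0.0799), where the estimated counts come to a median of 4.46% of its gene counts. With each mouse left out in turn the counts ran from 0 to 8 in WT pairs, 1 to 5 in KO pairs, 0 to 3 in WT against males, 1 to 4 in KO against males, 0 to 1 in KO against WT within a stage or sex, 1 to 2 in all KO against all WT and 0 to 1 in the interactions, and correlated pairs from 9 to 19 of 28. In the other alternatives 8 to 16 pairs passed. Of 165 member values under other processing 97 kept their call, and of 268 with a compared mouse left out 230 did. With KO diestrus mouse 1 as the TMM reference, an alternative chosen after seeing the data, 14 of the 15 calls were kept and Prox1 in KO estrus against males was lost. The cause of the other changes was not tested. No paired analysis was possible because replicate numbers follow accession order and only name mice. Depth limits Glis3 most, with 134 to 543 reads.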
